A study of Homo sapiens with 2 samples.

Results

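The genes described here are 10 human transporters that carry amino acids across the plasma membrane: SLC7A11, SLC7A5, SLC3A2, SLC43A1, SLC7A1, SLC1A5, SLC1A4, SLC38A2, SLC38A1 and SLC6A9. They were chosen by name from transporter families with earlier differences between these same arrays known, so their differences are a description and carry no test. Each of the 10 genes was read by at least 1 probe set that names no other gene, and each passed the filter on low signal, as did 12541 genes in all. K562 is a human leukaemia line, established from a patient with chronic myeloid leukaemia, that carries the BCR-ABL fusion. RNA was taken from K562 cells with the control vector pMSCV and from K562 cells with a retrovirus for PML4, an isoform of the nuclear body scaffold protein PML, and each group is 1 Affymetrix array. Cells of both groups were grown in 1640 medium with 10% FBS and were selected with G418 for 3 weeks, so drug selection and viral vector are shared. The labels do not say whether the selected cells were clones or pools. Since a group is 1 array, no error between cultures can be given, and every difference described is between these 2 arrays.

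Amino acids enter cells through carriers of several solute carrier (SLC) families. Light chains of the SLC7 family such as SLC7A5 and SLC7A11 work as heterodimers with the glycoprotein SLC3A2, which brings them to the cell surface. SLC1A5, SLC1A4, SLC38A1 and SLC38A2 move small neutral amino acids with sodium, and exchangers such as SLC7A5 can use the glutamine that these carriers bring in. Several of these genes are known targets of the transcription factor ATF4, whose translation rises when amino acids run short, and dividing leukaemia cells depend on this uptake.

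Values are MAS5 signals, the array maker's summary of a probe set on a linear scale in arbitrary units. The floor was the median human probe set, 72.4, and lower signals were set to it ahead of the log2 step, which makes a difference with an array under the floor a lower bound. The probe set brightest over both arrays (mean log2) stands for its gene, and differences are given as log2 of the PML4 signal minus log2 of the control vector signal. Precision is limited by the number of arrays. The spread available is that between probe sets of the same gene, where the median gap between differences was 0.29 (log2).

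Erythroid markers of K562 were present on both arrays, with 8 of 8 measured genes above the floor, and their summed signal was 50749.4 with the control vector and 77342.9 with PML4. Of 19 markers of T cells, B cells, monocytes, fibroblasts, epithelium and endothelium, 8 lay above the floor with the control vector and 5 with PML4. Summed signals of the 19 were 13755.6 and 16893.4. The brightest were EPCAM at 5870.4 and 6203.1, LYZ at 3206.4 and 3134.6, CD3D at 2478.0 and 4996.3 and PECAM1 at 1512.1 and 2073.0. CD3E, like CD3D a chain of the T cell receptor complex, was at 105.9 and 55.3. The sums add signals of different probe sets, which are not comparable as levels. TAL1 was the erythroid marker with a lower signal, at 2679.9 and 1861.8 in its brightest probe set. CD14, CD2, MS4A1, COL1A2, COL3A1, LUM, PDGFRB, CDH1, KRT5, VWF and CDH5 were under the floor on both, and the part of the marker shifts in the transporter differences was not tested. The 3' to 5' ratio of GAPDH, a measure of RNA integrity, was 1.55 with the control vector and 1.53 with PML4, and that of ACTB was 2.94 and 2.80. PML was read by 9 measured probe sets, 5 higher and 4 lower with PML4. Of the 4, 211588_s_at and 239582_at were above the floor with the control vector only, so their direction was fixed by the filter. The probe set 211013_x_at was at 216.3 with the control vector and 1386.8 with PML4, and 210362_x_at was at 98.1 and 698.5. In contrast, 206503_x_at was at 927.2 and 156.5.

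Signals of the transporters were mostly lower on the PML4 array, and by unequal amounts. In RNA of whole cultures, fewer cells with a transcript and less of it per cell cannot be told apart. Of the 10 genes, 9 had a lower signal and SLC38A1 a slightly higher one, where 55.3% of all measured genes were lower. SLC6A9, counted as lower, was above the floor with the control vector only, so its direction was fixed by the filter. SLC7A11 was the only 1 of the 10 at least 2-fold lower, a size that 3.21% of all genes reached. None was at least 2-fold higher, against 1.23% of all genes. At 1.5-fold lower there were 3, SLC7A11, SLC43A1 and SLC7A5, against 11.8% of all genes. Because the genes were listed with these differences known, nothing is read from the counts. The median difference of the 10 genes was -0.42 on the log2 scale, and that of all measured genes was -0.05.

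**Figure D1:**
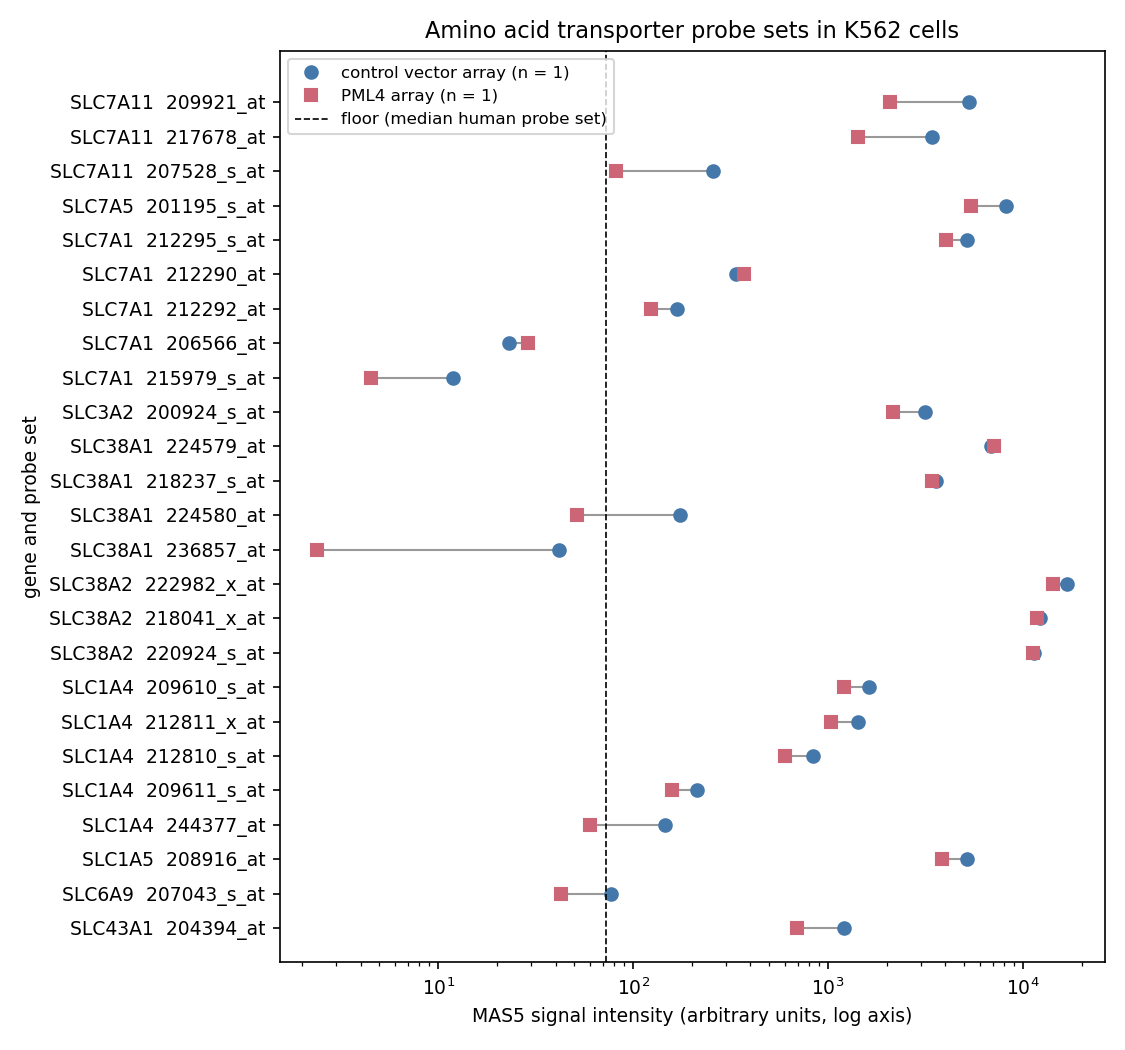
Signal of each of the 25 probe sets of the 10 amino acid transporter genes on the control vector array (circles) and on the PML4 array (squares), on a log axis, with the floor of 72.4 as a dashed line. The squares of SLC7A11 lie well to the left of the circles in all 3 probe sets, those of SLC38A2 lie close to them, and the largest gap on the log axis, for SLC38A1 236857_at, is under the floor on both arrays; signals of different probe sets are not comparable as levels.

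The heavy chain and its light chains were read first. SLC7A11, the light chain that imports cystine in exchange for glutamate, was read by 3 probe sets that were all above the floor on both arrays. Its probe set 209921_at was at 5297.6 with the control vector and 2088.1 with PML4, which left 39.4% of the control signal, a difference of -1.34. The probe set 217678_at was at 3418.0 and 1418.5, a 2.41-fold lower signal, and 207528_s_at was at 255.4 and 81.5, a 3.13-fold lower signal. All 3 thus passed 2-fold, where 3.05% of measured probe sets with 1 gene were at least 2-fold lower, and their differences spanned 0.38. Among all measured genes 119 had a more negative difference than SLC7A11, and among the 3136 genes of the brightest 25% there were 4. The probe set for the antisense transcript SLC7A11-AS1 was at 33.1 and 37.6, below the floor each time.

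SLC7A5, the light chain that exchanges large neutral amino acids such as leucine for glutamine, was read by 201195_s_at alone. It was at 8146.7 with the control vector and 5395.7 with PML4, a 1.51-fold lower signal. SLC3A2, the heavy chain shared by both light chains, was read by 200924_s_at alone, at 3148.8 and 2160.3, a 1.46-fold lower signal. SLC7A5 and SLC3A2 therefore differed between the arrays by nearly the same factor, with a gap of -0.05 on the log2 scale, smaller than the median gap between probe sets of the same gene. SLC7A11 differed from its heavy chain by -0.80, which is larger than that median gap. Probe sets ending in _s_at or _x_at can read several transcripts or related sequences, and SLC7A5, SLC3A2, SLC38A2 and SLC6A9 have only such probe sets.

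SLC43A1, a carrier of branched-chain and other large neutral amino acids that works without a heavy chain, had the largest difference after SLC7A11. Its only probe set, 204394_at, was at 1213.9 with the control vector and 692.3 with PML4, a 1.75-fold lower signal. A more negative difference was found for 5.96% of all measured genes.

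SLC7A1, the main carrier of arginine and lysine in many cell types, was lower in 2 of its 3 measured probe sets. The probe set 212295_s_at was at 5160.0 with the control vector and 4006.6 with PML4, a 1.29-fold lower signal, and the dimmer 212292_at was at 168.9 and 124.0. In contrast, 212290_at was at 336.6 and 372.5, a difference of 0.15. Neither array had 206566_at or 215979_s_at above the floor. The 3 measured differences spanned 0.59, more than the difference of -0.37 taken for the gene, so neither its size nor its direction is settled by these probe sets.

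The sodium-dependent exchangers of the SLC1 family were lower to the same degree. SLC1A5, which brings glutamine into the cell, was at 5158.8 with the control vector and 3843.9 with PML4 in its only probe set, 208916_at. SLC1A4, a carrier of alanine, serine and cysteine, was at 1614.9 and 1205.8 in 209610_s_at. The difference was -0.42 for both genes, a 1.34-fold lower signal. The other SLC1A4 probe sets that each array read above the floor were 1.35-fold to 1.39-fold lower, so that all 4 lay within 0.05 of each other. The fifth, 244377_at, was at 145.0 and 59.8, under the floor on the PML4 array, and at least 2-fold lower. Of the 5 members with several probe sets, SLC1A4 had the narrowest range among those above the floor on each array.

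The sodium-coupled carriers of the SLC38 family differed little in their bright probe sets. SLC38A2, a carrier of alanine and glutamine that is induced when amino acids are withdrawn, was at 16852.8 with the control vector and 14248.8 with PML4 in 222982_x_at, a 1.18-fold lower signal. Its other probe sets were nearer to equal, with 218041_x_at at 12221.0 and 11803.4 and 220924_s_at at 11321.6 and 11190.0. SLC38A1, its close relative, was at 6836.9 and 7103.8 in 224579_at and at 3563.0 and 3425.5 in 218237_s_at. The differences of these SLC38A1 probe sets were 0.06 and -0.06, so their gap was larger than either difference. A dim SLC38A1 probe set, 224580_at, was at 173.6 and 51.8 and at least 2.40-fold lower, and 236857_at did not reach the floor, at 41.6 and 2.4. The probe set 1559924_at for the antisense transcript SLC38A2-AS1, described after its value was seen, was at 113.2 with the control vector and 14.5 with PML4. It was above the floor with the control vector only, so it could only be lower. The other probe set of this transcript, 1559925_s_at, was under the floor on both arrays, at 5.4 and 5.0.

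SLC6A9, the glycine transporter that supplies heme synthesis in erythroid cells, was close to background. Its only probe set, 207043_s_at, was at 76.7 with the control vector and 42.5 with PML4, so the signal was just above the floor on one side and under it on the other. The difference of -0.08 is a bound, and the direction was the opposite after loess centring, at 0.05.

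Dim probe sets were lower on the PML4 array in general, which bears on the dim members. Of the dimmest 25% of measured genes 73.8% had a lower signal with PML4 and the median difference was -0.24, and for the brightest 25% these values were 43.4% and 0.05. The dimmest 25% held SLC6A9, and the dim probe sets of SLC38A1 and SLC1A4 named above lay near the floor as well. The brightest 25% held 7 members, SLC7A11, SLC7A5, SLC7A1, SLC3A2, SLC38A1, SLC38A2 and SLC1A5, of which 6 were lower. Of these bright genes 3.54% were at least 1.5-fold lower, among them SLC7A11 and SLC7A5. SLC43A1 and SLC1A4 lay in the next 25%, where the median difference was 0.02. The part of the shift at low signal in the member differences was not tested.

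**Figure D2:**
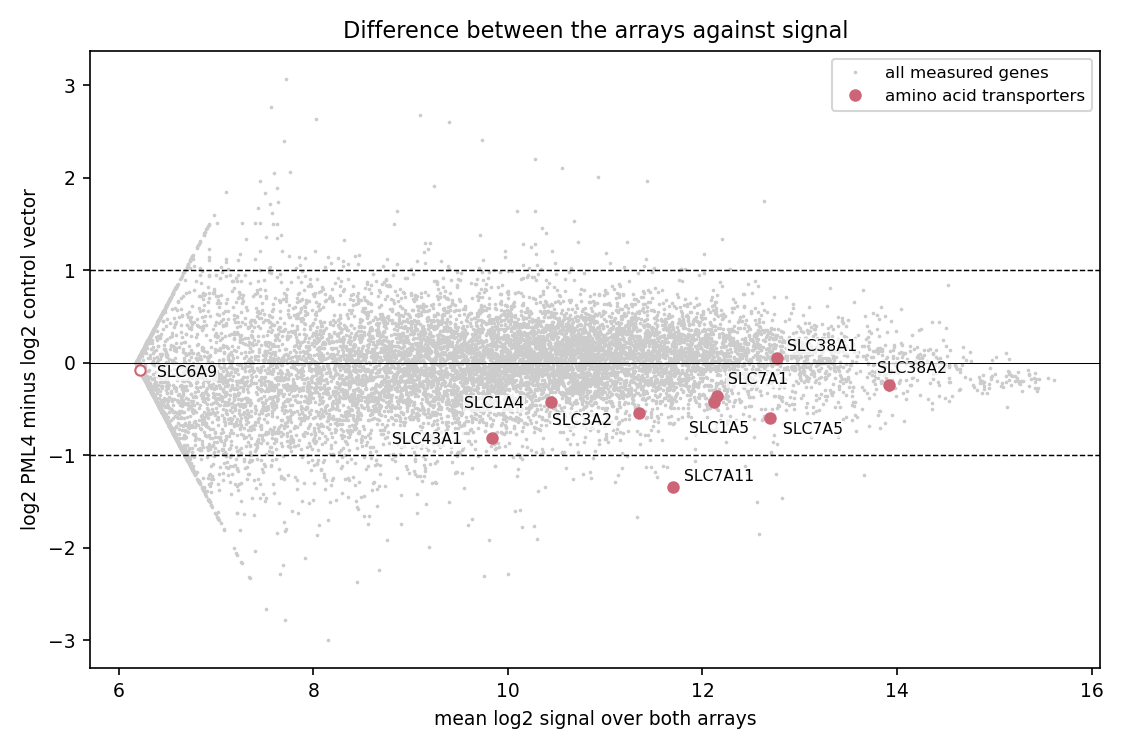
Difference between the arrays (log2 PML4 minus log2 control vector) against mean log2 signal for 12541 measured genes (grey) and the 10 amino acid transporters (coloured; the open circle, SLC6A9, is a bound), with dashed lines at 2-fold. SLC7A11 lies below the lower line at -1.34, SLC38A1 lies at 0.06, and the other members above the floor on both arrays lie between -0.24 and -0.81; the grey straight edges on the left are genes at the floor on one array.

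Other processing left most of these differences in place; ranges cover the alternatives that gave a gene a value. SLC7A11 stayed between -1.42 and -1.29 under the 8 alternatives and was at least 2-fold lower in all 8. SLC43A1 stayed between -0.81 and -0.76, SLC1A5 between -0.46 and -0.38 and SLC3A2 between -0.59 and -0.49. SLC7A5 ran from -0.61 to -0.55, which lies on either side of 1.5-fold. The members that depended on the probe set read were SLC7A1, at 0.15 when _x_at and _s_at probe sets were left out, SLC1A4, at least 2-fold lower in the same setting, where 244377_at alone stands for it, and SLC38A1, at -0.42 for the mean of its probe sets.

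**Figure D3:**
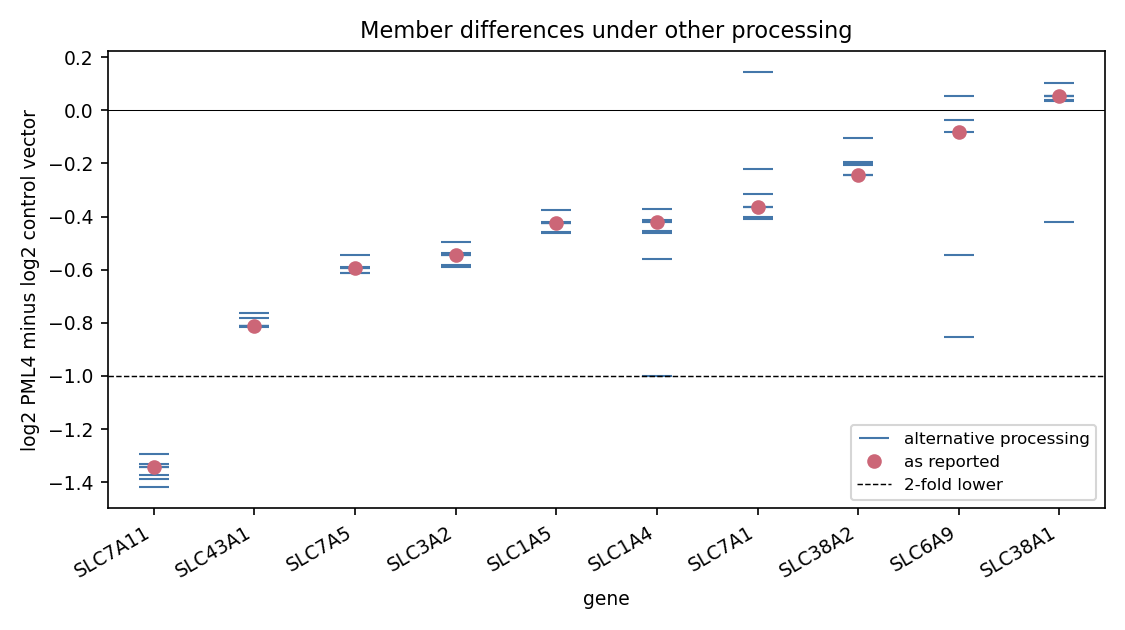
Difference of each amino acid transporter gene (log2 PML4 minus log2 control vector) as reported (circles) and under each alternative that gave a value (dashes), with the dashed line at 2-fold lower. SLC7A11 stays below that line, from -1.42 to -1.29, and the dashes of SLC7A1, SLC6A9 and SLC38A1 fall on both sides of zero.

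Other amino acid transporters showed smaller and mixed differences. Of 37 further transporter genes 35 were read by a probe set naming no other gene and 16 were measured. Of these 16, 11 had a lower and 5 a higher signal, against 55.3% of all genes lower. Only 13 were above the floor on both arrays, and the rest, above it with the control vector only, could only be lower. None of the 16 was 2-fold apart, against 3.21% of all genes at least 2-fold lower and 1.23% higher, and their median was -0.19. That median was -0.03 with the higher floor at the 75th percentile, -0.08 after quantile normalization and -0.09 after loess centring. Light chains that also pair with SLC3A2 differed in direction. SLC7A6, which exchanges arginine for neutral amino acids, was at 1750.9 with the control vector and 2151.7 with PML4 in 203580_s_at, and its dimmer probe sets were at 337.6 and 439.9 and at 178.7 and 363.9. All 3 SLC7A6 probe sets were thus higher with PML4, by 1.23-fold to 2.04-fold, and the gene differed from SLC3A2 by 0.84 on the log2 scale. SLC7A8, a light chain for neutral amino acids, was at 329.3 and 221.2, a 1.49-fold lower signal, and SLC7A7 was under the floor on both arrays.

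Related carriers of the other members were also measured. SLC43A2, the relative of SLC43A1, was at 80.0 with the control vector and 112.2 with PML4, close to the floor. SLC38A5, a glutamine and glycine carrier, was at 381.6 and 332.6, and SLC36A1, a proton-coupled carrier that exports amino acids from lysosomes, was at 312.2 and 288.5. The 2 genes past 1.5-fold, named after their values were seen, were SLC38A9, a lysosomal arginine sensor, at 898.5 and 576.4, and SLC6A19, a neutral amino acid carrier best known from kidney and gut, at 425.2 and 718.8. SLC38A9 was lower in both of its probe sets, and SLC6A19 was higher in all 3 of its measured probe sets, though their mean difference of 0.44 is under 1.5-fold. Of these 3, 231480_at was above the floor with PML4 only, at 41.0 and 82.6, so it could only be higher. Among 203 other measured SLC genes 8 were at least 2-fold lower and 6 at least 2-fold higher, against 3.21% and 1.23% of all genes, with a median of -0.11. The largest differences above the floor on both arrays were SLC27A1, a fatty acid carrier, at 261.6 and 84.6, SLC2A12, a glucose carrier, at 339.5 and 118.2, and SLC26A11, an anion carrier, at 627.1 and 242.3. Upward they were SLC25A48, a mitochondrial carrier, at 109.0 and 363.7, SLC10A4, a vesicular member of the bile acid carrier family, at 1073.0 and 2654.1, and SLC30A1, the zinc exporter, at 830.0 and 1876.7. Genes with a bound were left out of this ranking; among them SLC18A2, a vesicular monoamine carrier named after its values were seen, was at 32.9, under the floor, and 608.6, at least 8.41-fold higher with PML4.

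Genes of the amino acid response were lower as a group, with larger differences than the transporters. Of 23 measured genes of a list of ATF4, its kinases and its targets, 21 had a lower signal, against 55.3% of all genes. Of the 23, 22 were above the floor on both arrays, and the other, above it with the control vector only, could only be lower. At least 2-fold lower were 9, against 3.21% of all genes, and the median of the list was -0.86. ATF4 itself was at 18865.1 with the control vector and 12011.1 with PML4, a 1.57-fold lower signal. Of its targets, ASNS, asparagine synthetase, was at 19694.7 and 8509.4, DDIT3, a stress transcription factor, at 4580.0 and 1435.9, and TRIB3, a pseudokinase that restrains ATF4, at 12036.6 and 4349.6. Others of the 9 were CHAC1, which degrades glutathione, at 792.3 and 152.8, DDIT4, an mTORC1 inhibitor, at 11645.4 and 3236.0, ATF5, at 2097.6 and 613.8, and ATF3, at 862.5 and 355.0. The 2 genes with a higher signal, named after their values were seen, were EIF2AK3, the kinase PERK, at 812.1 and 1144.3, and PPP1R15A, at 1928.6 and 2063.4. The other PPP1R15A probe set, 202014_at, was lower with PML4, at 1147.4 and 900.7, so the direction of PPP1R15A is not settled. This list, too, was written with earlier results of these arrays known.

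A list of genes of cystine use, glutathione and the oxidative stress factor NRF2 was, unlike SLC7A11, not mostly lower. Of its 15 measured genes 6 were lower and 9 higher, against 55.3% of all genes lower, with a median of 0.04. The 9 include NFE2L2, the gene of NRF2, at 0.09, and KEAP1, at 0.45, besides NQO1, TXNRD1 and SRXN1. The lower ones include CBS, at -0.50, and GPX4, at -0.48. The counts therefore do not describe cystine use alone. Of the 15, 14 were above the floor on both arrays, and the other, above it with the control vector only, could only be lower. The 2 at least 2-fold lower, against 3.21% of all genes, were CHAC1 and CTH, which makes cysteine from cystathionine, at 4558.5 with the control vector and 2106.4 with PML4. GCLC and GCLM, the subunits of the first enzyme of glutathione synthesis, were at 1168.0 and 1220.0 and at 2342.2 and 2312.2. The other GCLM probe sets were lower, at differences of -0.52 and -0.48, and the mean over its probe sets was -0.34. NQO1, a target of the oxidative stress factor NRF2 like SLC7A11, was at 1709.9 and 2886.9, a 1.69-fold higher signal. It was the only 1 of the 15 at least 1.5-fold higher, and TXNRD1 and SRXN1 in the same list differed by 0.01 and 0.11. NFE2L2, KEAP1, CBS, GPX4, GCLC, GCLM, NQO1, TXNRD1 and SRXN1 were named after their values were seen. Of 31 measured genes that sense amino acids at the lysosome 12 were lower and 19 higher, against 55.3% of all genes lower, with a median of 0.09. Here 30 were above the floor on both arrays, and the other, above it with the control vector only, could only be lower. None of the 31 was 2-fold apart, against 3.21% of all genes at least 2-fold lower and 1.23% higher. SESN2, a leucine sensor that is also an ATF4 target, was the lowest of them at 2109.1 and 1077.0, and was named after its value was seen.

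**Figure D4:**
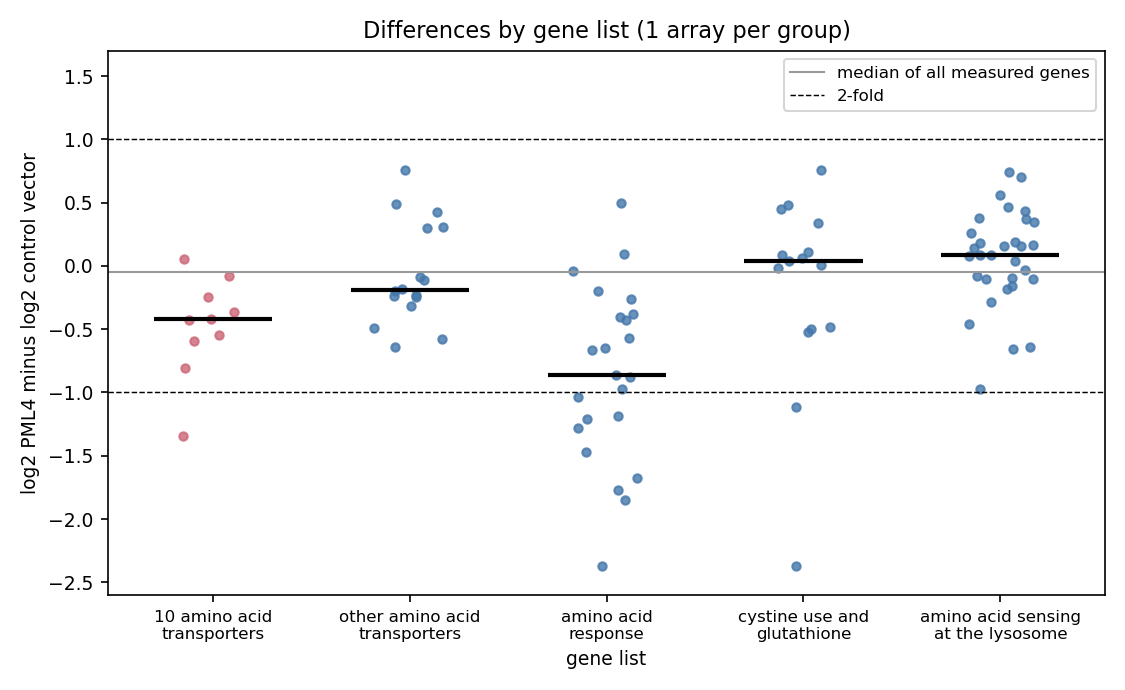
Difference of each measured gene (log2 PML4 minus log2 control vector) in 5 gene lists, with each list's median as a black bar, the median of all measured genes as a grey line and dashed lines at 2-fold. The medians are -0.42 for the 10 amino acid transporters, -0.19 for other transporters and -0.86 for the amino acid response. They are 0.04 for cystine use and glutathione, a list that also holds NRF2 genes, and 0.09 for lysosomal sensing. SESN2, SLC38A9 and CHAC1 each stand in 2 lists.

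Promoter windows of the members were searched for 3 short motifs, since most members differed in the same direction. RefSeq windows on GRCh38.p14 run from 250 bases before to 50 bases after an annotated start, and the table held 16 windows for 9 of the 10 genes, all but SLC7A11. The motifs, read on both strands, were TGATGNAAN for the C/EBP-ATF element bound by ATF4, TGACNNNGC for the antioxidant response element bound by NRF2, and CACGTG for the E-box bound by MYC and related factors. No match of one motif overlapped a match of another. Each stretch below has 30 bases around a match, 5′ to 3′ on the strand of the gene, with the match in capitals, and is shown so that the members sharing a motif can be compared.

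The C/EBP-ATF element was matched in 5 of the 16 windows, in 5 genes, and in 3.61% of all 35116 windows. Of the 14620 windows of measured genes, 2% held it. The matches lay at chr2:64989381-64989410 (plus strand), chr19:46784892-46784921 (minus), chr11:62881719-62881748 (plus), chr13:29595662-29595691 (minus) and chr12:46266501-46266530 (minus), in the order of the lines. Counted from the annotated start as 1, with no position 0, the matches begin at -8 in SLC1A4, -97 in SLC1A5, 37 in SLC3A2, 8 in SLC7A1 and -4 in SLC38A1.
SLC1A4: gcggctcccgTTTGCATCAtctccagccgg
SLC1A5: aggaagtggcTGATGCAAGctgtccagggt
SLC3A2: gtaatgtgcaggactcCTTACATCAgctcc
SLC7A1: ggcgcactgcTGATGAAACctggcgccgga
SLC38A1: cagacccgaaTGATGAAAAgggatcagcta

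The antioxidant response element was matched in 4 windows, in 4 genes, in 13.3% of all windows and in 14.9% of those of measured genes. These stretches lay at chr11:62881652-62881681 (plus), chr13:29595754-29595783 (minus), chr16:87869490-87869519 (minus) and chr19:46787385-46787414 (minus).
SLC3A2: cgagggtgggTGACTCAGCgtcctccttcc
SLC7A1: tgcccggcggTGACGCGGCcgagcgggccg
SLC7A5: gcggggttccTGACGCAGCtgcgggcggcg
SLC1A5: cctggatcttGCGAGGTCAgctcccgctcc

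The E-box was matched in 3 windows, in 3 genes, in 7.26% of all windows and in 9.32% of those of measured genes. These stretches lay at chr11:57515797-57515826 (minus), chr16:87869620-87869649 (minus) and chr19:46787326-46787355 (minus).
SLC43A1: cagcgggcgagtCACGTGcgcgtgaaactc
SLC7A5: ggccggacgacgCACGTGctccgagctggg
SLC1A5: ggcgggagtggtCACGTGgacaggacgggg

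The C/EBP-ATF element was in windows of SLC3A2, SLC1A4, SLC1A5 and SLC7A1, with differences of -0.54 to -0.37, and also in a window of SLC38A1, with a difference of 0.06. It was in no window of SLC43A1, SLC7A5, SLC38A2 or SLC6A9, at -0.81, -0.59, -0.24 and -0.08. The antioxidant response element was in windows of SLC7A5, SLC3A2, SLC1A5 and SLC7A1, at -0.59 to -0.37. The E-box was in windows of SLC43A1, SLC7A5 and SLC1A5, at -0.81, -0.59 and -0.42. Windows of SLC38A2 and SLC6A9 held none of the 3 motifs. Read in the direction of the motif, the C/EBP-ATF matches of SLC1A4 and SLC1A5 are TGATGCAAA and TGATGCAAG. Both SLC1A5 windows with a match belong to starts inside the gene, downstream of its first annotated start. The windows with a match in SLC3A2, SLC1A4 and SLC38A1 also belong to a start downstream of the gene's first annotated one. SLC43A1 has several starts too, and its match lies in the window of the first. A match is a run of letters in these windows and was not set against binding data, and the part of any motif in the differences was not tested.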

How the data were processed

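The authors deposited MAS5 signal intensities on a linear scale, 1 value per probe set and array. MAS5 is named, with no version, per the submitters' processing notes, and its settings are not stated in these sources. The mean after trimming 2% at each end was 500.0 with the control vector and 500.1 with PML4. No further normalization was applied. Probe sets were named from GEO's platform annotation: of 54613 human probe sets 41091 had 1 gene, 1801 several and 11721 no entry, and 41037 matched a current gene by Entrez identifier, with no symbol changed. Only probe sets with 1 gene were used.

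Probe sets above the floor, the 50th percentile, on at least 1 array were taken as measured. A gene was called at 2-fold, a size and not a test, since 1 array per group gives none. As alternatives, the floor was moved to the 25th or the 75th percentile or replaced by a pseudocount of 32, differences were centred on the median gene or by loess (span 0.4), arrays were quantile normalized, and genes were read by the mean of their probe sets or without _x_at and _s_at probe sets; calls were also made at 1.5-fold and 3-fold. The spread between probe sets used those above the floor on both arrays, 16239 pairs in 5453 genes. The steps were tested on simulated data, with known changes planted in bright genes only and larger than any member difference. That test does not bear on small differences or on genes near the floor. Python 3.11.15, pandas 2.3.3 and statsmodels 0.14.6 were used.

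The members and lists were chosen with earlier results of these data known. Genes named are all probe sets of the members, at most 6 genes per list by size among those 2-fold apart, a fixed set of the members' partners, relatives and amino acid response genes (ATF4, ASNS, DDIT3, TRIB3 and CHAC1), and the 3 largest differences each way among other SLC genes above the floor on both arrays; others are described as named after their values were seen.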

Additional observations from a re-analysis of the deposited data

How the results depend on the processing

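No paired analysis was possible because each group is 1 array. The count of members at least 2-fold lower, 1 as reported, was 2 when _x_at and _s_at probe sets were left out, 3 for calls at 1.5-fold and 0 for calls at 3-fold, which SLC7A11 did not reach. With _x_at and _s_at probe sets left out, 6 members were measured and 4 of them were lower, because SLC7A5, SLC3A2, SLC38A2 and SLC6A9 have no other probe sets. No alternative gave a member at least 2-fold higher. The members' median ran from -0.62 to -0.37 over the 8 alternatives. CHAC1 was at -0.77 and ATF3 at -0.89 under a floor at the 75th percentile, and without _x_at and _s_at probe sets ASNS was at -0.92 and ATF3 at -0.69, all under the size of a call. With the floor at that 75th percentile SLC26A11 was at -0.43, and after loess centring SESN2 passed 2-fold, at -1.004. ATF3 was at -0.80, SLC2A12 at -0.81 and SLC30A1 at 0.89 for the mean over probe sets, and SLC2A12 was at -0.10 without _x_at and _s_at probe sets. SLC7A6 stayed higher in all 7 alternatives that gave it a value, from 0.25 to 0.57.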
